A study of Mus musculus with 6 samples.

Results

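The 10 genes described here encode the constant regions of mouse antibodies and 2 products of the cells that secrete them. They are the heavy chain constant genes Ighm, Ighd, Ighg3, Ighg1, Ighg2b, Ighg2c and Igha, the kappa light chain constant gene Igkc, the gene of the joining chain, Jchain, and the syndecan-1 gene, Sdc1. They were picked by name from a table of 55487 genes, because Ighg2c was among the largest rises between the groups compared. RNA sequencing was carried out on LSKs, the Lin- Sca-1+ c-Kit+ fraction of bone marrow cells that holds the hematopoietic stem and progenitor cells. There were 3 libraries from Tespa1+/+ mice, labelled as littermates, and 3 from Tespa1-/- mice, which lack the signalling protein Tespa1. All mice of both groups had been exposed to sublethal total body irradiation, and per the methods the LSKs were taken in the second week after it. The Tespa1-/- line was made on a 129S-derived background and was backcrossed to C57BL/6. The mice were young adult males, and no source states whether a library came from 1 mouse or a pool, so a p-value here measures only the spread between libraries.

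An antibody is built from paired heavy and light chains, each with a variable region that binds antigen and a constant region that sets its class. A B cell first transcribes Ighm, and class switch recombination later joins its variable region to a constant gene further along the locus, which gives IgG, IgE or IgA. Plasma cells, the end stage of the B lineage, carry very large amounts of constant region mRNA, and they reside in the bone marrow. IgM and IgA are secreted as polymers that are held together by the joining chain. Most plasma cells display syndecan-1 (CD138) on their surface. Stem cells are not known as antibody producers. The lineage cocktail of the sort was directed at CD3e, CD11b, Gr-1, Ter-119 and B220, a surface marker of B cells that plasma cells lose or reduce. Which cells carried the antibody transcripts was not tested.

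The sequences of the 4 IgG genes matter here because parts of these genes are near copies of each other, so a read could be counted for the wrong one. All lie on the minus strand of chromosome 12 in GRCm38, and the sequences, read 5′ to 3′, come from the GENCODE M21 transcripts. The first 90 bases of the exon of the first constant domain are shown. Capitals mark, in Ighg2c, bases that differ from all 3 other genes, and in the other genes bases that differ from Ighg2c. The windows are chr12:113288843-113288932 for Ighg2c, chr12:113307844-113307933 for Ighg2b, chr12:113330434-113330523 for Ighg1 and chr12:113361143-113361232 for Ighg3.
Ighg2c: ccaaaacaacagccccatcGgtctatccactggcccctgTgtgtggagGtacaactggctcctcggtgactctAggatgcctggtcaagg
Ighg2b: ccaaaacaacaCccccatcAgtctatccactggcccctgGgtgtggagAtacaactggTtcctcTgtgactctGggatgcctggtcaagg
Ighg1: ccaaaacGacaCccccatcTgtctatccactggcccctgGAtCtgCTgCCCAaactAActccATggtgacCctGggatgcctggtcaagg
Ighg3: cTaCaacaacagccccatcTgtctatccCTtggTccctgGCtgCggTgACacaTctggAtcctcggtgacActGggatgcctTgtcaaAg

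Over the whole first domain exon, Ighg2c was identical to Ighg2b at 87.6% of 291 bases, to Ighg1 at 88.0% and to Ighg3 at 78.4%. The exon of the hinge, the flexible link between the arms and the stem of an antibody, separates the 4 genes far more clearly. Here capitals mark a run of at least 12 bases that the hinge exons of Ighg2c and Ighg2b share, and neither of the other exons shares such a run with Ighg2c. The exons lie at chr12:113288263-113288325, chr12:113307261-113307326, chr12:113329844-113329882 and chr12:113360529-113360576 in the order printed.
Ighg2c: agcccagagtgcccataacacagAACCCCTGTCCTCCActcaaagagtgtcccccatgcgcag
Ighg2b: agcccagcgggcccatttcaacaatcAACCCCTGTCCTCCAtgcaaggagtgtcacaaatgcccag
Ighg1: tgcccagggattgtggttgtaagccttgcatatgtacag
Ighg3: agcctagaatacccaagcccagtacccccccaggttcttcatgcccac

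Of the 3 exons compared base by base, the first exon of the membrane form was the closest, where Ighg2c and Ighg2b were identical at 96.2% of 131 bases. The exon of the third constant domain was the least alike. There Ighg2c was identical to Ighg2b at 76.2% of 315 bases, to Ighg1 at 70.8% and to Ighg3 at 64.1%. Of the 1276 windows of 50 bases in the Ighg2c transcript, 70 (5.49%) also occurred in another constant gene, in each case Ighg2b. At window lengths of 100 and 150 bases no window of any of the 12 constant genes compared occurred in another. For Ighm, Ighd, Igha and Igkc this held at 50 bases too. The read length and the handling of reads that match several genes were not given in the sources used here, so the split between Ighg2c and Ighg2b carries this uncertainty.

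Library depth ranged from 14344753 to 30576981 counts in Tespa1+/+ and from 12856630 to 17684702 in Tespa1-/-. Tespa1 itself fell from 34.4 ± 1.62 to 14.6 ± 0.634 CPM (counts relative to a TMM-scaled library total; mean ± SD, n = 3 libraries per group throughout), a log2 fold change of -1.23 (SE 0.07; adjusted p = 7.0e-06, edgeR quasi-likelihood test). Of the sort markers, Kit fell from 332.7 ± 9.79 to 169.6 ± 6.13 CPM (not called after a correction for gene length). Ly6a, which encodes Sca-1, stood at 50.5 ± 11.6 and 40.4 ± 3.36 CPM (adjusted p = 0.109, edgeR). After the same correction Ly6a was called lower (log2 fold change -0.69, adjusted p = 0.0073, edgeR). Over the 15332 genes tested, 2148 (14.0%) were called higher and 2951 (19.2%) lower in Tespa1-/-, where a call needed a fold over 1.5 and an adjusted p under 0.05. With scaling by total counts alone, 29.8% of the calls were higher, against 42.1% with TMM factors, and the median log2 fold change of all genes shifted to -0.10. In such bulk libraries more cells of a type and more RNA per cell cannot be told apart.

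All 10 genes passed the filter on low counts, the 4 IgG genes only through their Tespa1-/- libraries. The 3 libraries of Tespa1-/- lay wholly above those of Tespa1+/+ for 7 of the 10 genes and wholly below for 3. Over all genes tested, 34.5% lay wholly above and 34.6% wholly below. Since the genes were chosen on this contrast, nothing is read from these counts, and the values of the 10 genes are given as a description, with no test.

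**Figure D1:**
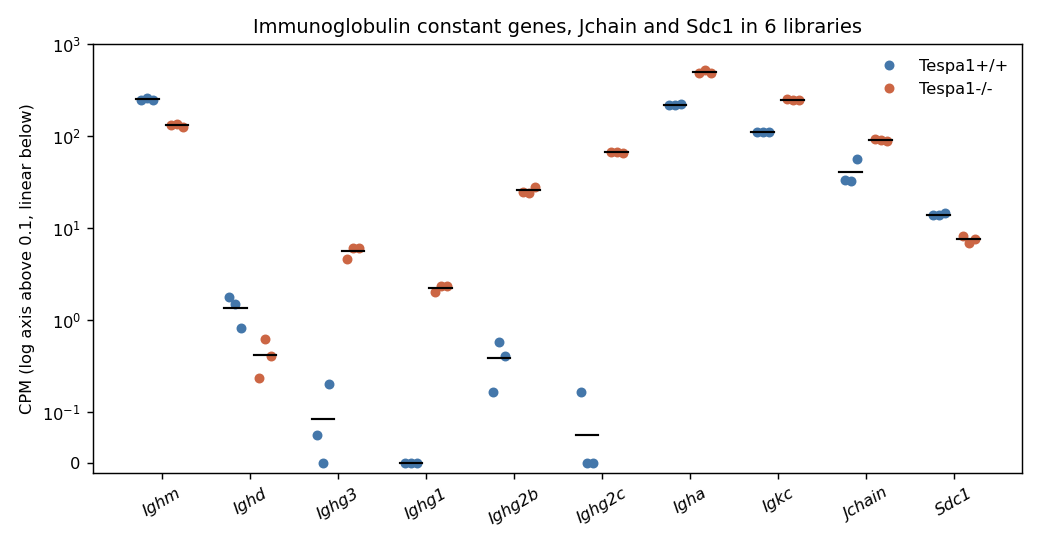
Level of each of the 10 genes in CPM, on an axis that is logarithmic above 0.1 and linear below it, with 1 point per library, coloured by genotype, and a bar at the group mean. The 4 IgG genes and Igha, Igkc and Jchain sat higher in all 3 Tespa1-/- libraries, whereas Ighm, Ighd and Sdc1 sat lower.

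The heavy chain genes of the first expressed classes were lower in Tespa1-/-. Ighm (ENSMUSG00000076617, chr12:113418558-113422730, minus strand) encodes the mu chain of IgM. It was counted at 244.8, 256.3 and 248.0 CPM in Tespa1+/+ and at 132.9, 134.3 and 124.8 CPM in Tespa1-/-. The groups were far apart compared with their spread, with means of 249.7 ± 5.92 and 130.6 ± 5.13 CPM and a log2 fold change of -0.93 (SE 0.04).

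Ighd (ENSMUSG00000104213, chr12:113406604-113416324, minus strand) encodes the delta chain of IgD, which naive B cells make from the same primary transcript as the mu chain. It had 32, 47 and 12 counts in Tespa1+/+ and 4, 9 and 5 counts in Tespa1-/-. These few counts gave 1.35 ± 0.490 and 0.419 ± 0.193 CPM and a log2 fold change of -1.74 (SE 0.43). The lowest Tespa1+/+ library, at 0.809 CPM, stood just above the highest Tespa1-/- library, at 0.620 CPM. Relative to Ighm in the same library, Ighd came to 0.542% ± 0.199 in Tespa1+/+ and 0.321% ± 0.143 in Tespa1-/-, a difference within the spread between libraries.

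The 4 IgG genes were almost without counts in Tespa1+/+ and were present in every Tespa1-/- library. Ighg2c (ENSMUSG00000076612, chr12:113285325-113288932, minus strand) encodes the gamma chain of IgG2c, the C57BL/6 counterpart of IgG2a in some other strains. It had 3, 0 and 0 counts in Tespa1+/+ and 1130, 978 and 809 counts in Tespa1-/-. The Tespa1-/- libraries lay close together at 66.3, 67.4 and 65.2 CPM. Against a floor of 3 counts in each Tespa1+/+ library, the level was at least 430.1-fold higher in Tespa1-/-.

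Ighg2b (ENSMUSG00000076613, chr12:113302965-113307933, minus strand) encodes the gamma chain of IgG2b. It was the single IgG gene with counts above the floor in Tespa1+/+, where the libraries had 3, 18 and 6. The Tespa1-/- libraries had 422, 352 and 346 counts. The means were 0.380 ± 0.204 and 25.6 ± 1.98 CPM, a 67.5-fold difference and a log2 fold change of 5.94 (SE 0.24).

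Ighg3 (ENSMUSG00000076615, chr12:113356224-113361232, minus strand) encodes the gamma chain of IgG3. It had 1, 0 and 3 counts in Tespa1+/+ and 78, 87 and 75 in Tespa1-/-, where its level was 5.54 ± 0.832 CPM. This was at least 35.9-fold higher than the floor in Tespa1+/+. Ighg1 (ENSMUSG00000076614, chr12:113325240-113330523, minus strand), for the gamma chain of IgG1, had no count in any Tespa1+/+ library and 34, 34 and 29 counts in Tespa1-/-. Its 2.23 ± 0.199 CPM was at least 14.4-fold higher than the floor. The 4 genes therefore differed among themselves in level in Tespa1-/-, but none of their Tespa1-/- libraries came near a Tespa1+/+ library.

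Igha (ENSMUSG00000095079, chr12:113254830-113260236, minus strand) encodes the alpha chain of IgA, the antibody class of mucosal surfaces. It was counted at 214.4, 216.5 and 219.7 CPM in Tespa1+/+ and at 489.1, 519.4 and 488.8 CPM in Tespa1-/-. Unlike the IgG genes it was abundant in both groups, and the means of 216.9 ± 2.65 and 499.1 ± 17.6 CPM gave a log2 fold change of 1.203 (SE 0.03). The last heavy chain constant gene, Ighe, had no count in any of the 6 libraries.

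**Figure D2:**
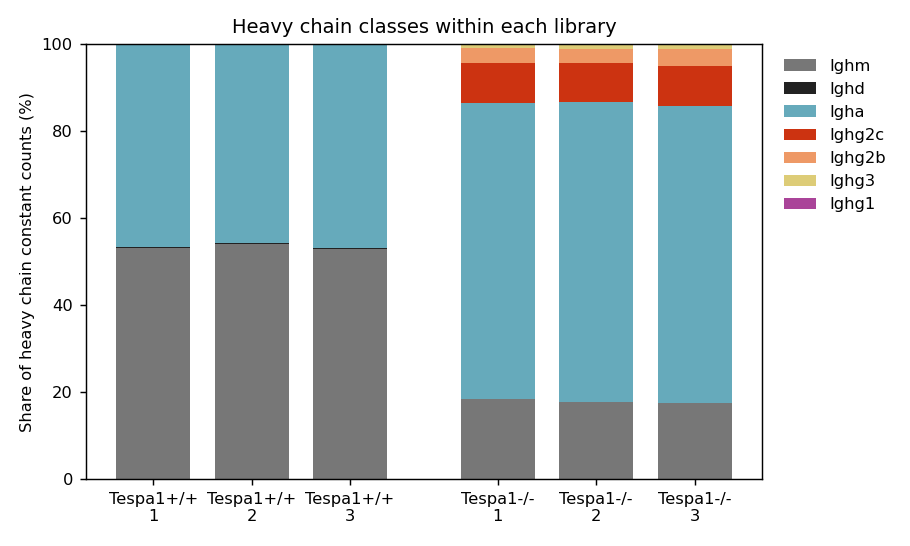
Percent of all heavy chain constant counts taken by each class, as 1 stacked bar per library. Ighm and Igha filled nearly the whole of each Tespa1+/+ bar, whereas each Tespa1-/- bar held mostly Igha, less Ighm and a band of IgG counts led by Ighg2c.

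Within a library the classes can be set against each other without regard to depth. Ighm took 53.3% ± 0.594 of the heavy chain constant counts in Tespa1+/+ and 17.9% ± 0.516 in Tespa1-/-. Igha took 46.3% ± 0.640 and 68.4% ± 0.464. The 4 IgG genes together held 7, 18 and 9 counts in Tespa1+/+, a share of 0.111% ± 0.0243, and 1664, 1451 and 1259 counts in Tespa1-/-, a share of 13.7% ± 0.477. The order of the leading classes was thus Ighm before Igha in all 3 Tespa1+/+ libraries and Igha before Ighm in all 3 Tespa1-/- libraries.

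The share of Ighg2c in the Tespa1-/- libraries was 9.22%, 8.93% and 9.12%, and the exact (Clopper-Pearson) 95% intervals ran from 8.40% to 9.74%, for counting error only. All 3 intervals overlap. Among the IgG counts of Tespa1-/-, Ighg2c made up 66.5% ± 1.98, Ighg2b 25.7% ± 1.64, Ighg3 5.55% ± 0.744 and Ighg1 2.23% ± 0.163. Their order was the same in every Tespa1-/- library. Shares depend on how gene length is treated, since a longer transcript gives more fragments. From the deposited FPKM values the IgG share in Tespa1-/- was 18.7% and the Ighg2c share 14.6%.

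Along chromosome 12 the constant genes follow Ighm in the direction of transcription. Measured from the start of Ighm, Ighd begins at 6.41 kb, Ighg3 at 61.5 kb, Ighg1 at 92.2 kb, Ighg2b at 114.8 kb, Ighg2c at 133.8 kb, Ighe at 149.5 kb and Igha at 162.5 kb. The genes lower in Tespa1-/- were the nearest ones, Ighm and Ighd, and each of the 5 further genes with counts was higher. Among these, the level in Tespa1-/- per kb of exon did not simply follow the distance, since Ighg1, at 0.859 CPM per kb, was below Ighg3 and Ighg2b on either side of it.

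**Figure D3:**
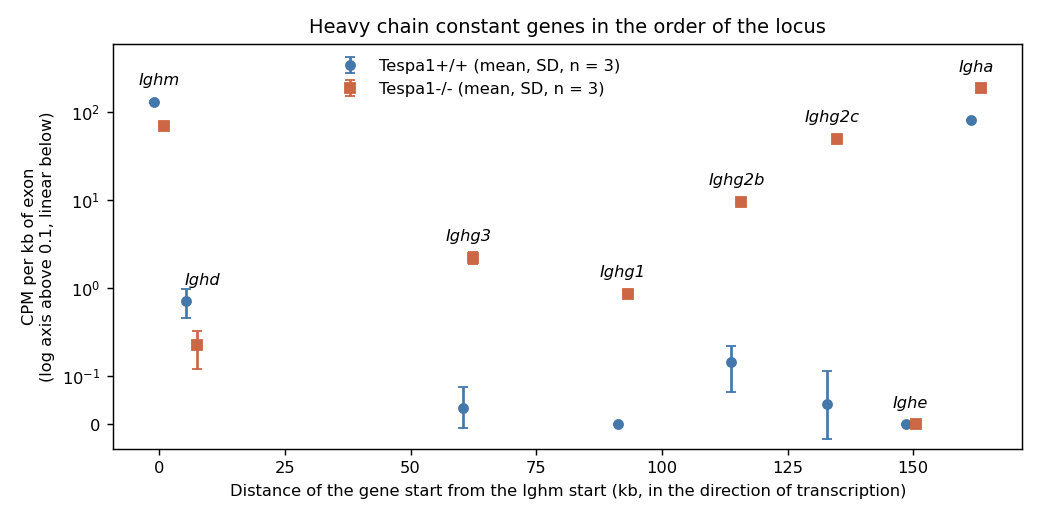
Level of each heavy chain constant gene in CPM per kb of exon (log axis above 0.1, linear below) against the distance of its start from that of Ighm in kb, as the mean with SD of 3 libraries per genotype. The Tespa1-/- mean lies below that of Tespa1+/+ at Ighm and Ighd and above it at Ighg3, Ighg1, Ighg2b, Ighg2c and Igha, and Ighe is at 0 in both.

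The light chain gene Igkc (ENSMUSG00000076609, chr6:70726435-70726966, plus strand) encodes the constant region of kappa, the main light chain of mouse antibodies. It was counted at 111.6, 111.0 and 111.0 CPM in Tespa1+/+ and at 254.7, 244.8 and 245.6 CPM in Tespa1-/-. The means of 111.2 ± 0.350 and 248.4 ± 5.48 CPM gave a log2 fold change of 1.16 (SE 0.03). Igkc is by far the shortest of the 10 genes, and after a correction of fold changes for their trend with gene length its log2 fold change was 0.69.

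The lambda light chain genes, which are no members of the group, did not move together. Iglc1 rose from 6.93 ± 0.423 to 12.2 ± 0.995 CPM (log2 fold change 0.81, adjusted p = 3.4e-04, edgeR; 0.34 and not called after the length correction), Iglc3 rose on 5, 7 and 3 against 19, 19 and 10 counts, and Iglc2 fell from 8.99 ± 0.787 to 3.91 ± 0.470 CPM. Iglc2 and Iglc3 are near copies, and 43 windows of 50 bases (7.65% of those in Iglc2) occur in both. Lambda counts came to 12.7% ± 0.645 of all light chain constant counts in Tespa1+/+ and to 6.47% ± 0.518 in Tespa1-/-, so the light chain counts of Tespa1-/- were more heavily kappa. Igkc per heavy chain constant count was 0.237 ± 0.00408 in Tespa1+/+ and 0.341 ± 0.0148 in Tespa1-/-.

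Jchain (ENSMUSG00000067149, chr5:88519809-88527891, minus strand) encodes the joining chain of polymeric IgM and IgA. It was counted at 32.9, 32.3 and 55.7 CPM in Tespa1+/+ and at 93.0, 91.4 and 87.7 CPM in Tespa1-/-. All Tespa1-/- libraries were higher, but the third Tespa1+/+ library stood well above the other two. With all libraries the log2 fold change was 1.18 (SE 0.20), and without that library it was 1.49. The heavy chain genes of the same library did not stand apart in this way, since its Igha level was 219.7 CPM against 214.4 and 216.5 CPM.

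Sdc1 (ENSMUSG00000020592, chr12:8771323-8793715, plus strand) lies on the same chromosome far from the antibody locus. Its counts gave 13.8, 13.7 and 14.4 CPM in Tespa1+/+ and 8.16, 6.89 and 7.50 CPM in Tespa1-/-. The surface marker of plasma cells was therefore lower where Igha, Igkc, Jchain and the IgG genes were higher, with a log2 fold change of -0.89 (SE 0.09). Many epithelial and other cells also express Sdc1.

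The ratios of these genes within a library show the same split. For each Ighm count, the Tespa1+/+ libraries held 0.876, 0.845 and 0.886 Igha counts, and the Tespa1-/- libraries held 3.68, 3.87 and 3.92. Jchain counts per Igha count came to 0.154, 0.149 and 0.254 in the Tespa1+/+ libraries and to 0.190, 0.176 and 0.179 in the Tespa1-/- libraries, so that the groups overlapped. Per Ighm count, in contrast, the Jchain counts came to 0.134, 0.126 and 0.225 in the Tespa1+/+ libraries and to 0.700, 0.681 and 0.703 in the Tespa1-/- libraries, with no overlap.

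**Figure D4:**
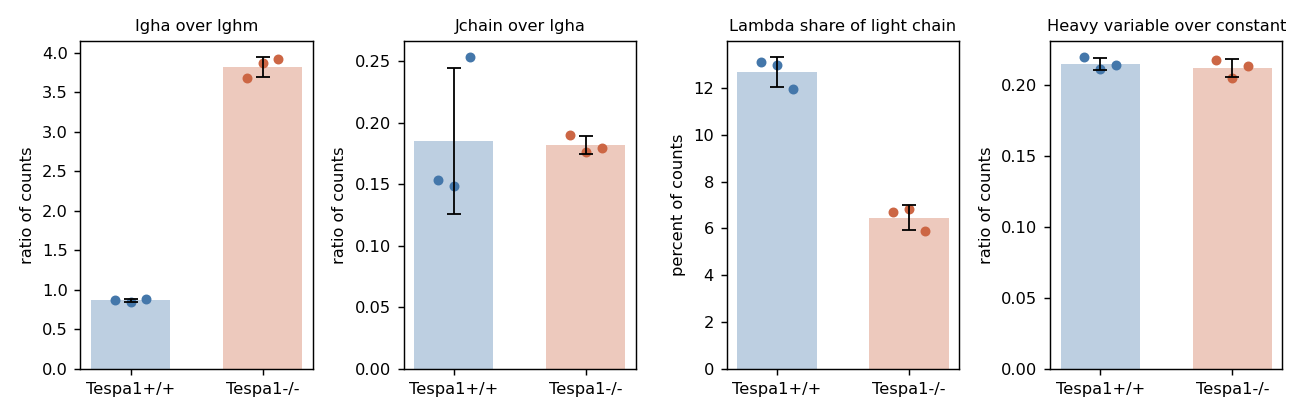
Ratios of counts within each library for Igha over Ighm, Jchain over Igha, lambda as a percent of light chain constant counts, and heavy chain variable over constant genes, with points for libraries and bars for the mean with SD by genotype. Igha over Ighm and the lambda share were apart between the groups, whereas Jchain over Igha and the heavy chain variable ratio overlapped.

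Per length of annotated exon, the levels can be ordered across genes. In Tespa1+/+ the order was Igkc at 209 ± 0.657 CPM per kb, Ighm at 132.4 ± 3.14, Igha at 81.3 ± 0.993, Jchain at 16.0 ± 5.30, Sdc1 at 3.67 ± 0.0923, Ighd at 0.712 ± 0.258 and Ighg2b at 0.142 ± 0.0760 CPM per kb. Ighg2c, Ighg3 and Ighg1 were at the floor and cannot be ordered. In Tespa1-/- it was Igkc at 466.9 ± 10.3 CPM per kb, Igha at 187.1 ± 6.58, Ighm at 69.3 ± 2.72, Ighg2c at 50.01 ± 0.801, Jchain at 36.0 ± 1.09, Ighg2b at 9.57 ± 0.738, Ighg3 at 2.21 ± 0.331, Sdc1 at 1.97 ± 0.167, Ighg1 at 0.859 ± 0.0767 and Ighd at 0.221 ± 0.102 CPM per kb. Ighg2c thus ranked next to Ighm and above Jchain. Of the neighbours in this order, only Ighg3 and Sdc1 overlapped between libraries.

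The spread of each gene within a group does not depend on the contrast that chose it. It is given as chi-square per degree of freedom over the 3 libraries of a group. Under counting error alone its mean over genes is near 1 and its median is below 1. Ighg2c in Tespa1-/- stood at 0.228, where the median of genes with a like count was 1.61. Ighg1 in Tespa1-/- stood at 0.280, and Ighg2b and Ighg3 at 2.03 and 1.98. The 3 Tespa1-/- libraries therefore held Ighg2c at levels that agree within sampling noise. Igkc in Tespa1+/+ was at 0.0207 and Igha at 0.524. Jchain in Tespa1+/+ stood far above genes with a like count, at 81.4 against a median of 1.82. Smaller excesses were seen for Igha in Tespa1-/-, at 8.996 against 3.58, and in Tespa1+/+ for Ighd, at 2.76 against 1.013, and for Ighg2b, at 2.26 against 0.880. Over all genes the libraries of a group did differ beyond counting error, with a mean chi-square per degree of freedom of 7.22 to 9.82 in pairs and a median of 0.820 to 1.24.

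The variable genes of the same loci, which encode the antigen binding regions, were also higher in sum for heavy and kappa chains. The heavy chain variable genes summed to 100.7 ± 0.574 CPM in Tespa1+/+ and 154.5 ± 1.86 CPM in Tespa1-/-, and per heavy chain constant count the ratio was 0.215 ± 0.00425 and 0.212 ± 0.00659. The kappa variable genes summed to 140.4 ± 2.40 and 233.1 ± 6.22 CPM, but per Igkc count their ratio was 1.26 ± 0.0178 in Tespa1+/+ and lower, at 0.939 ± 0.0450, in Tespa1-/-, without overlap. The 7 single genes ranked beside Ighg2c among all rises by fitted log2 fold change were also variable genes, led by Igkv15-103 at 0, 0 and 0 against 210, 166 and 136 counts, and Ighg2c ranked as the third. Fitted fold changes of genes at the floor depend on the prior count that edgeR adds, so this rank does too.

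Most of the genes tested that B cells and their precursors use were lower. Of 18 genes of the B cell receptor, its signalling and B cell identity, 13 were tested, of which 9 fell and 4 were not called, and the median log2 fold change was -1.19, against 0.00 over all genes. For this list and those below, the shares over all genes tested were 14.0% called higher and 19.2% called lower. Pax5, the transcription factor that holds B cell identity and is silenced in plasma cells, fell from 8.98 ± 0.697 to 1.71 ± 1.15 CPM (log2 fold change -2.36). Cd79a, a signalling chain of the B cell receptor, fell from 5.54 ± 0.574 to 3.26 ± 0.591 CPM. Its partner Cd79b, at 22.7 ± 1.11 and 27.3 ± 1.03 CPM, and Cd24a, at 368.0 ± 6.09 and 450.2 ± 7.74 CPM, were slightly higher in Tespa1-/- but under the fold required for a call (adjusted p = 0.0092 and 7.2e-05, edgeR), and both were named after their values were seen. Ms4a1, which encodes CD20, had at most 3 counts in a library, and Cr2 and Fcer2a had none. The summed level of the list was 562.8 to 596.4 CPM in Tespa1+/+ and 613.1 to 625.2 CPM in Tespa1-/-.

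Of 7 genes of the pre-B cell receptor and of V(D)J recombination, 5 fell and 2 were not called, with a median log2 fold change of -1.08. Rag1, a subunit of the recombinase, fell by 2.97 on the log2 scale to 1.05 ± 0.425 CPM. Dntt, the polymerase that adds bases at the joins, fell from 151.1 ± 3.62 to 31.8 ± 1.43 CPM. The list summed to 168.4 to 176.0 CPM in Tespa1+/+ and 39.2 to 41.7 CPM in Tespa1-/-. Igll1, of the surrogate light chain, fell from 4.85 ± 0.200 to 2.93 ± 0.218 CPM (not called with log2(FPKM + 1), at -0.48). Its partner Vpreb1 stood at 3.24 ± 0.776 and 2.43 ± 0.387 CPM (adjusted p = 0.132, edgeR). Vpreb1 was called lower after the length correction (log2 fold change -0.80, adjusted p = 0.0193, edgeR), where all 7 genes of this list fell. It was also called lower without the first Tespa1+/+ library (-0.60, adjusted p = 0.0293, edgeR). Counts of the 4 heavy chain joining genes in the table were 29, 46 and 20 in Tespa1+/+ and 6, 6 and 5 in Tespa1-/-.

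As a list, the regulators and surface proteins of plasma cells did not rise with Igha, Igkc, Jchain and the IgG genes. Of 18 listed, 17 were tested, 1 rose and 7 fell (4 without the first Tespa1+/+ library), and the median log2 fold change was -0.07. Prdm1, which encodes Blimp-1, the repressor that drives plasma cell formation, fell from 0.991 ± 0.338 to 0.414 ± 0.173 CPM (adjusted p = 0.0325, edgeR). This call was lost without the first Tespa1+/+ library (adjusted p = 0.0857, edgeR), the second Tespa1-/- library (0.0867) or the third Tespa1-/- library (0.0924). It was also lost after the length correction (adjusted p = 0.0691, edgeR) and with DESeq2 (0.118). Irf4, its partner in that program, fell from 4.33 ± 0.371 to 1.91 ± 0.210 CPM. Cd28, which is also counted among the T cell genes given below, fell by 2.72 on the log2 scale. Xbp1, which builds up the secretory apparatus, stood at 89.9 ± 4.12 and 126.3 ± 1.003 CPM, a log2 fold change of 0.49 (adjusted p = 5.4e-05, edgeR) under the fold required for a call. Ccr10, a homing receptor of IgA plasma cells, was the gene that rose, from 0.474 ± 0.138 to 1.17 ± 0.363 CPM (adjusted p = 0.0197, edgeR). Its call was lost without the first (adjusted p = 0.0591, edgeR) or the third (0.0524) Tespa1+/+ library, and without the second (0.0645) or the third (0.0636) Tespa1-/- library. The Ccr10 call was also lost after the length correction (adjusted p = 0.06, edgeR) and with DESeq2 (0.0732). Mzb1, a chaperone of antibody assembly, had 43, 95 and 37 counts in Tespa1+/+ and 50, 35 and 29 in Tespa1-/-, at 2.62 ± 0.339 and 2.56 ± 0.326 CPM. Tnfrsf17, the receptor BCMA, had at most 7 counts in a library.

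Genes of the secretory apparatus were higher as a list. Of 19 tested, 12 rose and 7 were not called, with a median log2 fold change of 0.75, and the list summed to 3949 to 3988 CPM in Tespa1+/+ and 6307 to 6452 CPM in Tespa1-/-. Fkbp11, an isomerase of the endoplasmic reticulum, rose from 11.7 ± 0.941 to 38.0 ± 1.79 CPM (log2 fold change 1.69, adjusted p = 3.9e-06, edgeR). Sdf2l1 rose from 158.4 ± 6.85 to 400.1 ± 13.6 CPM. Other cells with a heavy secretory load use these genes as well.

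Of 15 genes of class switching, 14 were tested, of which Batf rose (log2 fold change 0.78) and Trp53bp1 fell (-0.80), and the median was -0.13. Over all genes tested 14.0% were called higher and 19.2% lower, so nothing is read from these calls. Neither call held after the length correction, with log2 fold changes of 0.44 for Batf and -0.15 for Trp53bp1, and without the first Tespa1-/- library 2 genes of this list fell. The list of antibody receptors held 14 genes, among them receptor chains and related proteins that do not all bind antibody themselves. Of these, 10 were tested, 3 rose (5 without the second Tespa1+/+ library) and 2 fell, with a median of 0.53. The share that fell was near the 19.2% over all genes. Fcgr4, a receptor for IgG2a, IgG2c and IgG2b on myeloid cells, rose from 1.38 ± 0.0496 to 2.92 ± 0.759 CPM, and Fcgr2b and Fcgr3 rose as well, though Fcgr3 was not called after the length correction (log2 fold change 0.44) and Fcgr2b not with log2(FPKM + 1) (0.54). Ms4a2, a chain of the IgE receptor of mast cells and basophils, fell from 5.40 ± 0.730 to 2.11 ± 0.780 CPM, and Fcrl1 fell too, a call lost with DESeq2 (adjusted p = 0.0549).

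**Figure D5:**
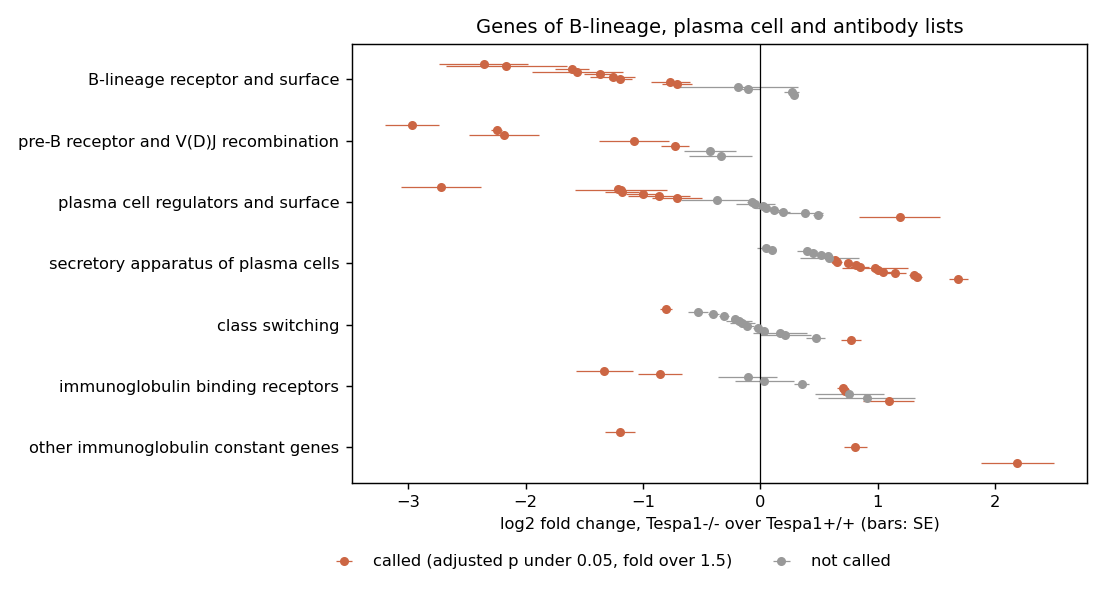
Log2 fold change (Tespa1-/- over Tespa1+/+) of each tested gene in 7 lists, with 1 point per gene, its SE as a bar, and called genes in red. The called genes of the B-lineage and pre-B lists lie below 0 and those of the secretory list above 0, whereas the plasma cell regulators have 7 called genes below 0 and 1 above.

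Markers of other blood cells moved between the groups beside the antibody genes. Of 12 late neutrophil genes, 11 were tested and all 11 rose, with a summed level of 22.1 to 24.6 CPM in Tespa1+/+ and 505.5 to 537.3 CPM in Tespa1-/-. Ly6g, the surface marker of mature neutrophils, had 0, 0 and 0 counts in Tespa1+/+ and 7, 8 and 4 in Tespa1-/-. Of 8 late erythroid genes, 4 of the 5 tested rose, and the sum went from 17.1 to 18.5 CPM up to 43.9 to 47.8 CPM (7 rose without the third Tespa1+/+ library). Of 14 T cell genes, 5 of the 7 tested fell, with a sum of 26.5 to 28.3 CPM against 13.5 to 16.6 CPM (3 fell without the second Tespa1+/+ library). Cd3e had 8, 7 and 4 counts against 0, 0 and 0. Cd3d, in contrast, had 4, 4 and 0 against 1, 2 and 4, and Cd3g had 0, 5 and 0 against 4, 3 and 0. These CD3 genes had too few counts to be tested. Of 12 monocyte and macrophage genes, 1 of the 9 tested rose (2 without the second Tespa1+/+ library) and 2 fell, with 429.3 to 451.2 CPM against 405.8 to 444.7 CPM, and Csf1r, the receptor that sustains macrophages, was among those that fell, from 137.2 ± 2.86 to 87.2 ± 4.57 CPM (log2 fold change -0.43 and not called after the length correction). The part of these cells in the antibody gene results was not tested.

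The genes whose levels over the 6 libraries lay nearest to those of Ighg2c were Ngp, Camp, Ighv1-50, Igkv15-103 and Ltf, by the mean absolute difference in log2 CPM, which was 1.24, 1.53, 1.69, 1.73 and 1.81. Ngp, Camp and Ltf encode granule proteins of neutrophils. Ngp had 1226, 1054 and 885 counts in Tespa1-/-, close to the 1130, 978 and 809 of Ighg2c. In Tespa1+/+ both were low, but Ngp had 3, 8 and 5 counts where Ighg2c had 3, 0 and 0. Ltf had 0, 10 and 3 counts against 823, 689 and 625. The other two, Ighv1-50 and Igkv15-103, are antibody variable genes.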

How the data were processed

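The members and the gene lists were chosen with earlier results of these data known. Per the labels, RNA of LSKs was made into stranded paired-end libraries. The authors deposited 1 table with, for each of the 6 samples, raw counts and FPKM values. The submitters' processing notes name CASAVA 1.8, HISAT2, StringTie, edgeR and GRCm38, without their roles. The counting tool, its strand setting and the read length were not given in the sources used here. The deposited FPKM values use 1 fixed length per gene, longer than the merged exons for 8 of the 10 members, so levels per length were computed from counts and merged GENCODE M21 exons.

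After the filterByExpr filter on low counts and TMM scaling, counts were fitted with the quasi-likelihood test of edgeR 4.0.16 (R 4.3.3) on all 6 samples without covariates. P-values were adjusted by Benjamini-Hochberg over 15332 genes, and a call required a fold over 1.5 beside an adjusted p under 0.05. The SE of a log2 fold change was derived from its F statistic. The floor was 3 counts per library, and intervals are exact at 95%, for counting error only, since reads carry no molecular identifiers. The fit was tested on simulated data. Named were the 10 members, the 2 highest and 2 lowest called genes of each list or some of them, fixed defining genes, and the 5 genes nearest to Ighg2c in log2 CPM (prior count 0.5). Some of the defining genes are not reported here.

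Alternatives were RLE size factors, total counts, no filter, a minimum of 10 counts in every sample, DESeq2 1.42.0, limma-trend (limma 3.58.1) on log2(FPKM + 1) and log2(FPKM + 0.1) for genes with FPKM of at least 1 in 3 samples, a replicate block, a loess correction for gene length, and leaving out each library. Same-numbered libraries deviated together with correlations of -0.111, -0.131 and 0.0333, so no pairing by number was seen, though this cannot exclude one.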

Additional observations from a re-analysis of the deposited data

How the results depend on the processing

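All 10 members kept the sign of their log2 fold change in every alternative run that tested them. Since they were chosen on this contrast, nothing is read from this. Ighg2c lay between 5.27 (log2(FPKM + 1)) and 13.23 (without the first Tespa1+/+ library). The IgG genes and Ighd dropped out where every sample needed 10 counts, and Ighd and Ighg1 also dropped out of both runs on FPKM. From FPKM the share of Ighm was 60.6% in Tespa1+/+ and 21.2% in Tespa1-/-, that of Igha 38.9% and 60.0%, and in Tespa1-/- that of IgG 18.7% and of Ighg2c 14.6%. Over all genes, 1070 were higher and 1626 lower with log2(FPKM + 1), 1365 higher with log2(FPKM + 0.1) and 1296 higher after the length correction, and leaving out a library gave 2078 to 2246 higher and 2716 to 2885 lower. With log2(FPKM + 1) and log2(FPKM + 0.1), fewer genes were tested in the lists given next. Genes lower numbered 2 and 2 of 5 tested in the B-lineage list and 2 and 3 of 5 in the pre-B list. They numbered 1 and 2 of 9 among plasma cell regulators, and 1 and 1 of 8 among antibody receptors. The gene higher among plasma cell regulators, Ccr10, was not tested in either run, nor with at least 10 counts in every sample. Its call was lost (0) with DESeq2 and after the length correction. Leaving out a library gave 0 to 1 higher and 4 to 6 lower in that list. With at least 10 counts, 2 of the 3 pre-B genes tested were lower and 1 of the 2 other constant genes tested was higher. In class switching, 2 genes were lower with total counts and with log2(FPKM + 0.1), 0 were higher after the length correction, and leaving out a library gave 1 to 2 lower. Among antibody receptors, leaving out a library gave 3 to 5 higher, and DESeq2 called 1 lower. After the length correction 1 other constant gene was higher. The direction turned for Fcer1g (-0.059 after the length correction, 0.35 as reported) and for Mzb1, called in no setting (-0.15 to 0.094 on leaving out a library, -0.04 with all). The replicate block gave 2101 higher and 2871 lower. The replicate labels of same-numbered libraries give only the number. The causes were not tested. Low counts limit Ighd, Ighg1, Prdm1, Ccr10 and Iglc3, among others.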
